A study of Mus musculus with 2 samples.

Results

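Expression of 8 transcription factor genes was described across the cell classes of the mouse yolk sac: Hand1, Hand2, Foxf1, Tbx20, Tbx3, Msx1, Msx2 and Twist1. They were chosen by name, as factors associated with extraembryonic mesoderm, from the 30970 genes counted. The rule that picks them uses no measured value, but they were chosen with earlier results of these data known. The label did not hold for every gene. Tbx3 was highest in endoderm cells and Twist1 was highest in endothelial cells, whereas Hand1, Hand2, Foxf1, Tbx20, Msx1 and Msx2 were highest in one of the mesoderm classes. The study measured single-cell RNA of yolk sacs from mouse embryos at stage E8.75, to set ciliated cell types against the visceral endoderm lineage, which carries no cilia. Cells of 3 samples were marked with CellPlex tags, pooled and run together on 10x chips. All animals had the genotype Ttr-Cre/+; R26lsl-rtTA-EGFP/+, that is, heterozygous for a Cre driven by the endoderm gene Ttr and for a Cre-dependent rtTA-EGFP allele at the Rosa26 locus. The samples used here form a single group, with no treatment and no wild-type control, and every comparison below is between cell classes of the same tissue.

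The yolk sac wall has an outer layer of visceral endoderm and an inner layer of extraembryonic mesoderm, with blood islands and vessels between them. Hand1, Hand2 and Twist1 encode basic helix-loop-helix factors, which bind DNA at E-boxes as dimers with E proteins and are held back by the Id proteins. Foxf1 encodes a forkhead factor of splanchnic and extraembryonic mesoderm, Tbx20 and Tbx3 encode T-box factors, and Msx1 and Msx2 encode homeodomain factors that often respond to BMP signals. In the mouse embryo, Hand1 and Foxf1 are known to be needed for normal extraembryonic mesoderm and yolk sac vessels.

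The matrices of tagged samples 1, 2 and 3 (labelled Ctrl1, Ctrl2 and Ctrl3) held 460, 651 and 706 cells with 22007477, 32890946 and 33114758 gene UMIs (unique molecular identifiers). The matrices shared 0 barcodes. The design text gives 3 embryos, but each matrix held both cells called by Xist (181, 259 and 217) and cells called by Y-linked genes (150, 177 and 344), so the number of embryos behind a tag was not settled. The p-values therefore measure only the spread between tagged samples, which may be technical in part. Cells were put into classes by the share of their UMIs in gate genes, none of which is among the 8 described. These were Ttr, Apob and Apom for endoderm, 7 globins for erythroid cells, Cdh5, Ctla2a and Plvap for endothelium, and Vcan, Pmp22 and Tdo2 for mesoderm. Mesoderm cells with at least 5 UMIs of Ttn, Myh6 and Tnnt2 formed a class of their own, called contractile here. This gave 139 mesoderm, 40 contractile, 561 endoderm, 111 endothelial and 631 erythroid cells, while 208 cells met no gate. Median depth was 34305 UMIs in mesoderm, 35549.5 in contractile, 56338 in endoderm, 35859 in endothelial and 47773 in erythroid cells.

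Marker genes outside the gates were read in each class. All 8 endothelial and all 6 erythroid markers were highest in their own class, as were 9 of 10 endoderm markers (Sox17 was not) and 7 of 8 contractile markers (Tnni3 was not). Of 9 mesoderm markers, 5 were highest in mesoderm itself (Bmp4, Pdgfra, Pdgfrb and Vim were not), and 7 in one of the mesoderm classes. Levels are given as CPM (counts per 1000000), the UMIs of a gene scaled to the summed gene UMIs of a class in a tagged sample. The full mesoderm list summed to between 1672 and 2035 CPM in mesoderm and 1861 to 1994 in endothelium, where Vim was abundant. Without Vim it ran from 826 to 1189 in mesoderm and from 46.3 to 65.4 in endothelium. The endoderm marker list, with all 10 genes detected, summed to between 456 and 530 CPM in mesoderm, 329 to 377 in erythroid cells and 18158 to 23830 in endoderm. The part of such stray RNA in the values below was not tested. In the contractile class the contractile marker list differed widely between tagged samples, from 252 to 2037 CPM.

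The 8 genes lie on 6 chromosomes of GRCm38, by GENCODE M21. Hand1 (ENSMUSG00000037335) is at chr11:57828705-57832818 on the minus strand and Hand2 (ENSMUSG00000038193) at chr8:57320983-57324633 on the plus strand. Foxf1 (ENSMUSG00000042812) is at chr8:121084386-121088144 on the plus strand and Tbx20 (ENSMUSG00000031965) at chr9:24718138-24774303 on the minus strand. Tbx3 (ENSMUSG00000018604) is at chr5:119670669-119684724 on the plus strand and Twist1 (ENSMUSG00000035799) at chr12:33957671-33959829 on the plus strand. Msx1 (ENSMUSG00000048450) is at chr5:37820485-37824583 and Msx2 (ENSMUSG00000021469) at chr13:53466884-53473074, both on the minus strand. All are protein-coding, and the counts are per gene.

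The 250 bases upstream of the start are shown for 4 genes that differed in their pattern across the classes: Hand2 and Tbx20, which were high together in both mesoderm classes, Msx1, which was high in mesoderm and endoderm, and Twist1, which peaked in endothelium. They come from RefSeq (GRCm38.p6) and read 5′ to 3′ on the strand of the gene, and capitals mark the E-box CANNTG, the letters bound by the helix-loop-helix members. The windows are chr8:57320733-57320982 (plus) for Hand2, chr9:24774304-24774553 (minus) for Tbx20, chr5:37824586-37824835 (minus) for Msx1 and chr12:33957421-33957670 (plus) for Twist1.
Hand2: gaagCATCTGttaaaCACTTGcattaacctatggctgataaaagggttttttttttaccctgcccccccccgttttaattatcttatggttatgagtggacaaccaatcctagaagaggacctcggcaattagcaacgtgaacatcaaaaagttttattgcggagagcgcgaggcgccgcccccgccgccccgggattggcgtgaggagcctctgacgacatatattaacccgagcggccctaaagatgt
Tbx20: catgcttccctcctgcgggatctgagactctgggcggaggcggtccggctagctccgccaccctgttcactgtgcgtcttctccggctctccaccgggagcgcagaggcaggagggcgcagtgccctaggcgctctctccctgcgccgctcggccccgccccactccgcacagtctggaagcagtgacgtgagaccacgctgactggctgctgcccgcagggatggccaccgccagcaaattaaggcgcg
Msx1: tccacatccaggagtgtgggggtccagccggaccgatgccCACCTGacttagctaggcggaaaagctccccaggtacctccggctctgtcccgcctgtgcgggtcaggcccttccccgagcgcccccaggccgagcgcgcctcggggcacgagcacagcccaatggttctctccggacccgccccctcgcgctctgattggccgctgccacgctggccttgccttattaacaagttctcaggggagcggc
Twist1: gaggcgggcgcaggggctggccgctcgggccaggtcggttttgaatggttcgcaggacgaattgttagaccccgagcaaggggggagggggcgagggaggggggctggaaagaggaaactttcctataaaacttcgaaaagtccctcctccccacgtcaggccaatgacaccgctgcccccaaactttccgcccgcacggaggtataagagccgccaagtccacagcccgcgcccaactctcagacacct
The Hand2 window held 2 E-boxes and the Msx1 window 1, and the Tbx20 and Twist1 windows held 0. The Msx2 window, which is not shown, held 1. An E-box was present in 66.2% of 32536 distinct upstream windows of that length. Both strands were also searched for the homeodomain letters TAATTG (in 7.18% of all windows) and the SMAD letters GGCGCC (9.65%), each found once, in the Hand2 window. The T-box letters AGGTGTGA (1.12%) and the forkhead letters TGTTTAC (3.17%) were in none of the 4 windows. No matches of different motifs overlapped. A match describes letters in this window and is not a bound site.

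The first question was which of the 8 genes set mesoderm apart from endoderm, the tissue layer it adjoins. Hand1, Hand2, Foxf1 and Tbx20 were far higher in mesoderm, Msx2 and Msx1 were higher by less, and Tbx3 and Twist1 were lower. In total, 6 of the 8 genes were called higher and 2 lower at an adjusted p under 0.05 in edgeR's quasi-likelihood test on summed counts, with Benjamini-Hochberg adjustment over all genes tested. Over all 10771 genes tested in that comparison, 62.3% were called, 29.7% higher and 32.6% lower, so a call by itself was common, and the sizes below say more than the count. Against endothelium, 6 of 8 were called higher and Twist1 lower, with 16.9% of 8497 genes called higher, 19.3% lower and 36.3% in either direction. Against erythroid cells, 8 of 8 were called higher, with 36.3% of 9540 genes called higher, 33.8% lower and 70.2% in either direction. All 8 genes passed the filter on low counts in each comparison. A gene that passes through its high class alone has to differ, so these counts describe the genes and do not support their choice. Against endoderm, Hand2, Foxf1 and Tbx20 passed through mesoderm alone, with 20, 38 and 45 endoderm UMIs. Against endothelium, Hand1, Hand2, Tbx20, Tbx3, Msx1 and Msx2 did so (52, 13, 11, 15, 12 and 5 endothelial UMIs). Against erythroid cells, at least Hand2, Foxf1, Tbx20, Tbx3, Msx2 and Twist1 did so (17, 30, 28, 31, 28 and 34 erythroid UMIs). The direction of these differences was fixed in advance, whatever the adjusted p given below. The same limit, and the shares given here, apply to the counts of listed genes below.

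**Figure D1:**
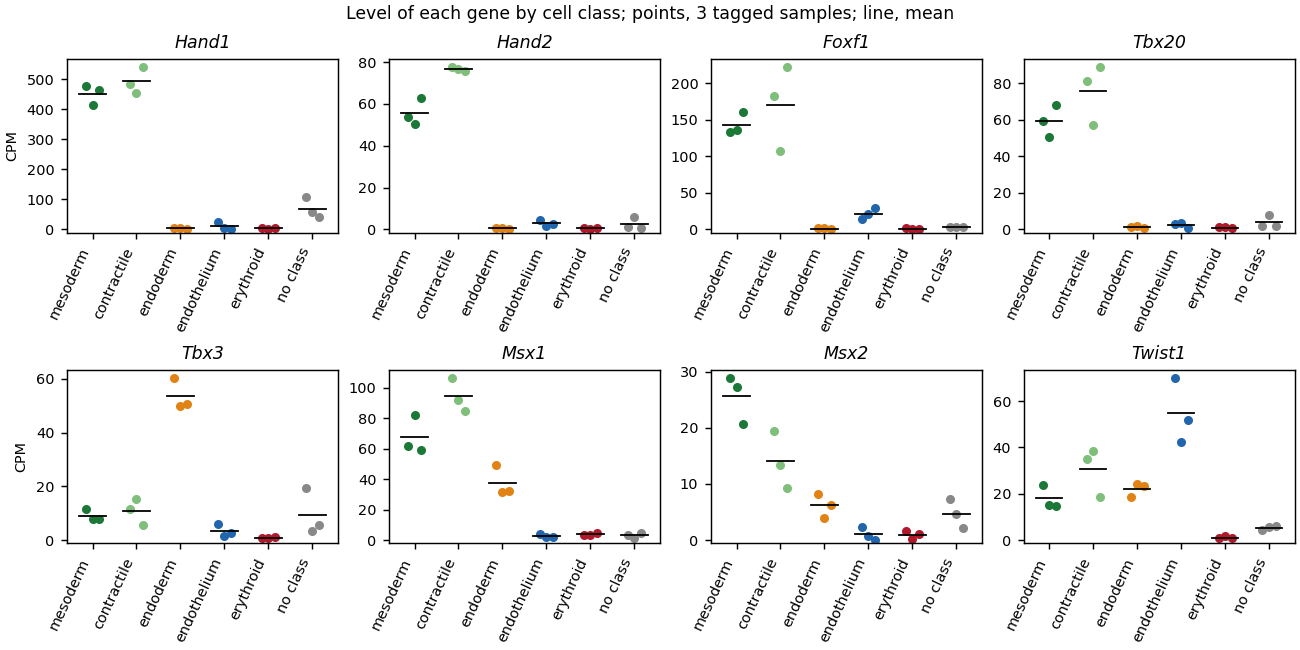
CPM (UMIs per 1000000 gene UMIs) of each gene (vertical axis, linear, a separate scale for each panel) in 5 cell classes and in the cells of no class; each point is 1 tagged sample (1, 2 and 3 from left to right) and each line the mean of 3. Hand1, Hand2, Foxf1 and Tbx20 are high in the mesoderm classes alone among the 5, Tbx3 peaks in endoderm at 49.9 to 60.4, and Twist1 peaks in endothelium at 42.5 to 70.1.

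Hand1, which is needed for extraembryonic mesoderm and for trophoblast giant cells, was at 477, 414 and 465 CPM in the mesoderm sums of tagged samples 1, 2 and 3. It was at 4.25, 5.84 and 2.07 in endoderm and 5.20, 2.89 and 5.22 in erythroid cells. Every mesoderm value was thus many times every endoderm and erythroid value. The cells of no class, at 107, 56.6 and 41.2, lay between. Pooled over samples, the mesoderm level was 103 times the endoderm level (95% exact interval on the counts 87.0 to 123, counting error only), and the edgeR log2 difference was 6.51 (SE 0.21, adjusted p = 1.34e-10). The log2 difference ranged from 5.52 to 7.59 over 12 alternative settings, and stayed past the threshold in all of them. With cells called as doublets by Scrublet removed, the endoderm mean fell from 4.05 to 2.05 CPM. In endothelium the values were 26.1, 3.73 and 2.63, so tagged sample 1 stood apart. There, 1 cell held 31 of the 44 Hand1 UMIs. The log2 difference from endothelium was 5.10 (SE 0.33, adjusted p = 1.49e-08), and it ran from 4.74 without tagged sample 3 to 6.96 without tagged sample 1.

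Hand2, a relative of Hand1 best known from heart and limb development, was at 53.7, 50.2 and 63.0 CPM in mesoderm. It was at 0.782, 0.893 and 0 in endoderm, 4.75, 1.49 and 2.63 in endothelium, and 0.904, 0.280 and 0.594 in erythroid cells. The mesoderm values did not overlap any of these. The log2 difference was 6.26 (SE 0.35, adjusted p = 1.47e-08) from endoderm and 4.04 (SE 0.30, adjusted p = 5.84e-08) from endothelium in edgeR, and the endoderm side of the first rests on 20 UMIs in 3 samples. The first ran from 5.73 without tagged sample 3 to 8.00 with Scrublet calls removed. The second ran from 3.79 without tagged sample 2 to 4.66 without tagged sample 1. Both were called in every alternative tried.

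Foxf1, the forkhead gene, was at 134, 136 and 161 CPM in mesoderm. It was at 1.34, 1.44 and 0.545 in endoderm and at 1.36, 0.747 and 0.950 in erythroid cells. Endothelium lay between, at 14.3, 20.9 and 28.9, above every endoderm and erythroid value and below every mesoderm value. The log2 difference was 6.72 (SE 0.20, adjusted p = 7.09e-11) from endoderm in edgeR's test but 2.70 (SE 0.19, adjusted p = 4.42e-08) from endothelium, where the pooled level in mesoderm was 7.07 times the endothelial level (95% exact counting interval 5.63 to 8.96). The difference from endoderm ran from 5.25 in sums thinned to equal depth to 7.65 with Scrublet calls removed, and was called in all 12 alternatives. After thinning to 20000 UMIs per cell, 33 of 82 endothelial cells held a UMI of Foxf1. The part of stray mesoderm RNA or of doublets in endothelial Foxf1 was not tested.

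Tbx20, a T-box gene of cardiac and extraembryonic mesoderm, was at 59.4, 50.8 and 68.3 CPM in mesoderm. It was at 1.45, 1.79 and 0.654 in endoderm, 2.97, 3.73 and 0.875 in endothelium, and 1.13, 1.21 and 0.594 in erythroid cells. None of these 9 values was above 3.73 CPM, and the lowest mesoderm value was 50.8. The log2 difference was 5.22 (SE 0.25, adjusted p = 3.53e-09) from endoderm and 4.36 (SE 0.31, adjusted p = 3.38e-08) from endothelium in edgeR. The first ran from 4.87 without tagged sample 3 to 6.35 with Scrublet calls removed. The second ran from 3.95 without tagged sample 3 to 5.26 in thinned sums.

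Tbx3, a T-box repressor of limb, heart and mammary development, had the opposite layer. It was at 60.4, 49.9 and 50.6 CPM in endoderm. In mesoderm it was at 11.6, 7.64 and 7.65, and in contractile cells at 11.6, 15.3 and 5.55. The endoderm values did not overlap those of any other class. The log2 difference of mesoderm from endoderm was -2.83 (SE 0.18, adjusted p = 5.26e-08 in edgeR), and by pooled counts endoderm was 6.13 times mesoderm (95% exact counting interval 4.50 to 8.57). Mesoderm in turn lay above endothelium (5.94, 1.49 and 2.63) in each sample, without overlap. That difference, 1.18 on the log2 scale (SE 0.46), was not called in edgeR (adjusted p = 0.0604). It was called with the tagged sample as a replicate block (1.32, adjusted p = 0.0329) and without tagged sample 1 (1.79, adjusted p = 0.0199), and the adjusted p ran from 0.0115 to 0.221 over 10 alternatives. The endoderm marker list in mesoderm, at 456 to 530 CPM, was above that in erythroid cells, whose Tbx3 values were 0.678, 0.934 and 1.07. In endothelium the same list summed to between 352 and 633 CPM. In contractile cells it summed to 409, 1140 and 403 CPM, highest in tagged sample 2, where contractile Tbx3 was also highest (15.3). The part of stray endoderm RNA in the Tbx3 of mesoderm, contractile and endothelial cells was not tested.

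Msx1, a homeodomain repressor, was shared by both tissue layers. It was at 61.9, 82.5 and 58.9 CPM in mesoderm and 49.3, 31.6 and 32.0 in endoderm. In endothelium it was at 4.16, 2.24 and 1.75, and in erythroid cells at 3.62, 3.17 and 4.69. The lowest mesoderm value, 58.9, was above the highest endoderm value, 49.3, and every endoderm value lay far above the blood and vessel classes. The log2 difference from endoderm was 0.66 (SE 0.19, adjusted p = 0.00750 in edgeR). It was not called without tagged sample 2 (0.38, adjusted p = 0.156) or with sums thinned to equal depth (0.95, adjusted p = 0.195), and the adjusted p ran from 2.68e-05 to 0.195 over 12 alternatives. The difference from endothelium was 4.44 (SE 0.31, adjusted p = 2.79e-08), and ran from 4.11 without tagged sample 2 to 5.62 in thinned sums.

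Msx2, its close relative, was at 28.9, 27.3 and 20.6 CPM in mesoderm and at 8.27, 3.92 and 6.32 in endoderm. Contractile cells held 19.4, 13.4 and 9.25, which lay between those classes without overlapping either. Endothelium was at 2.38, 0.746 and 0, the last from a sum with 0 UMIs. The log2 difference from endoderm was 1.88 (SE 0.27, adjusted p = 5.52e-05 in edgeR), and it lost its call only in the sums thinned to equal depth (1.52, adjusted p = 0.279, the highest of 12 alternatives, the lowest being 5.34e-15). The difference from endothelium was 4.23 (SE 0.47, adjusted p = 4.50e-06), with a direction that the filter fixed in advance. It ran from 3.94 without tagged sample 2 to 5.55 without tagged sample 1. Msx1 and Msx2 shared their order of mesoderm over endoderm over endothelium, while for Msx1 the contractile class stood above mesoderm and for Msx2 below it.

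Twist1, known from mesenchyme and from the neural crest, was highest in endothelium, at 70.1, 42.5 and 51.7 CPM. It was at 23.9, 15.3 and 14.7 in mesoderm, 34.9, 38.2 and 18.5 in contractile cells, 18.7, 24.1 and 23.4 in endoderm, and 0.904, 1.59 and 0.772 in erythroid cells. The endothelial values lay above every value of the other classes. Mesoderm was lower than endothelium by a log2 difference of -1.75 (SE 0.24, adjusted p = 3.78e-05 in edgeR), and pooled endothelium was 3.25 times mesoderm (95% exact counting interval 2.52 to 4.23). Against endoderm the values overlapped: mesoderm was higher in tagged sample 1 and lower in the other samples. The log2 difference there was -0.55 (SE 0.21, adjusted p = 0.0390). It was not called with DESeq2 (adjusted p = 0.0695) or when tagged sample 2 (-0.36, adjusted p = 0.303) or tagged sample 3 (-0.35, adjusted p = 0.307) was left out, and in sums thinned to equal depth it turned to 0.56 (adjusted p = 0.713). The adjusted p ran from 0.00211 to 0.713 over 12 alternatives, so the sign against endoderm is not firm.

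Erythroid cells, the largest class, held little of any of the 8 genes. The log2 differences of mesoderm from them were 6.26 for Hand1, 6.24 for Hand2, 6.82 for Foxf1 and 5.62 for Tbx20, and 3.68 for Msx1, 4.42 for Msx2, 3.59 for Twist1 and 2.75 for Tbx3. The adjusted p of Tbx3, the highest of the 8, was 5.89e-06 in edgeR. Msx2 lost its call in thinned sums (2.55, adjusted p = 0.0792, the highest of 12 alternatives, the lowest being 1.91e-42) and was at 5.04 without tagged sample 3. In that sample, 1 erythroid cell held 17 of the 19 Msx2 UMIs, and the whole class held 28. Foxf1 was at 5.18, Tbx20 at 4.82 and Msx1 at 2.59 in thinned sums, all still called.

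**Figure D2:**
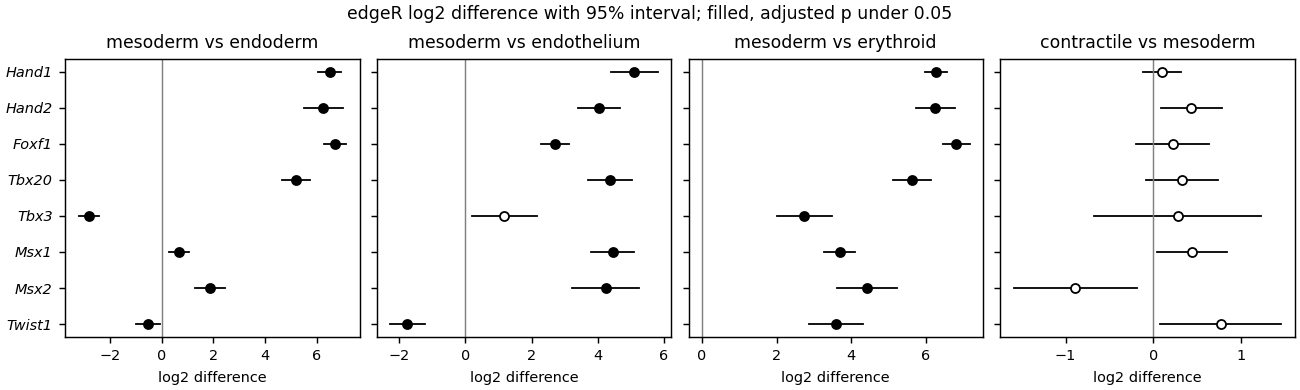
edgeR log2 difference of each gene (horizontal axis, log2) with its 95% interval in 4 comparisons; the first class named minus the second, 3 sums a class, filled points have an adjusted p under 0.05. Tbx3 and Twist1 fall left of 0 against endoderm, at -2.83 and -0.55, Twist1 alone does so against endothelium, at -1.75, and no point is filled for contractile against mesoderm.

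The order of levels was set beside the spread between samples for each gene. With 3 values a class, the exact two-sided permutation test of neighbouring classes cannot go below p = 0.1, so no single neighbour comparison can pass 0.05. Contractile and mesoderm values overlapped for Hand1, Foxf1, Tbx20 and Tbx3, and did not overlap for Hand2, Msx1 and Msx2. Below the mesoderm classes, endothelial, endoderm and erythroid Hand1 overlapped, and so did endoderm and erythroid Hand2 and Foxf1. For Twist1, contractile, endoderm and mesoderm values overlapped in turn. Scaling by library size alone put the median of all genes at 0.18 against endoderm and 0.41 against erythroid cells on the log2 scale. It raised the share of calls that were higher from 47.7% to 60.0% against endoderm and from 51.8% to 73.4% against erythroid cells. The Twist1 difference from endoderm was -0.34 under it (adjusted p = 0.165), and no gene of the 8 changed sign.

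Because the classes differ in size, a high level does not mean that most of a gene's RNA is found there. Mesoderm and contractile cells held 5.42% and 1.80% of the UMIs of kept cells, and endoderm 37.4%. Of 4323 Hand1 UMIs, 49.2% were in mesoderm, 18.0% in contractile cells and 16.2% in cells of no class. For Hand2 the 2 mesoderm classes held 52.4% and 24.0%, for Foxf1 54.8% and 21.6%, and for Tbx20 47.8% and 20.4%. Tbx3 lay to 87.3% in endoderm. Msx1 also lay mainly in endoderm (62.0%, with 16.9% in mesoderm), although its level was higher in mesoderm. Msx2 was split between endoderm (43.8%) and mesoderm (27.8%). Of Twist1 UMIs, 58.7% were in endoderm, 18.7% in endothelium and 6.57% in mesoderm.

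**Figure D3:**
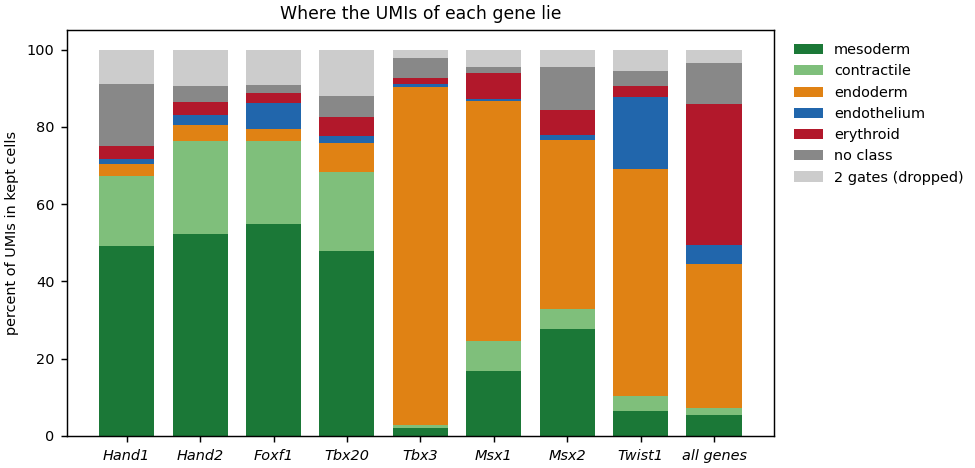
Percent of the UMIs of each gene in kept cells (vertical axis) by class, with all genes together in the last bar; cells in 2 gates, which entered no comparison, are pale grey. The mesoderm classes make up most of the bars of Hand1, Hand2, Foxf1 and Tbx20, and endoderm makes up 87.3% of Tbx3 and 62.0% of Msx1.

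How many cells carried each gene was asked at an equal depth of 20000 UMIs per cell, which left 118 mesoderm, 39 contractile, 512 endoderm, 82 endothelial and 618 erythroid cells. Erythroid cells, taken as a class that should lack these factors, served as the background for free RNA. Hand1 was found in 117 of 118 mesoderm cells, in 33 of 512 endoderm cells (6.45%) and in 36 of 618 erythroid cells (5.83%). The endoderm share was close to that background. Before thinning, single endoderm cells held 12 of 38 and 19 of 85 Hand1 UMIs in tagged samples 1 and 2, and with Scrublet calls removed the erythroid mean fell from 4.44 to 3.04 CPM, as the endoderm mean did above. The parts of free RNA and of doublets in these counts were not tested. Foxf1 was found in 108 of 118 mesoderm cells against 10 of 618 erythroid cells, Tbx20 in 75 against 7, and Hand2 in 65 against 4. Nearly every mesoderm cell thus held Hand1 and Foxf1 at this depth, and 63.6% and 55.1% of them held Tbx20 and Hand2. Unthinned, the mesoderm shares were 99.3% for Hand1, 92.8% for Foxf1, 73.4% for Tbx20 and 62.6% for Hand2, against 13.6%, 3.33%, 3.17% and 2.06% in erythroid cells.

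The remaining genes were patchier in mesoderm. Msx1 was found in 84 of 118 mesoderm cells, in 220 of 512 endoderm cells and in 44 of 618 erythroid cells, and the endothelial share of 7.32% was at the erythroid level of 7.12%. Msx2 was found in 31 of 118 mesoderm cells, 59 of 512 endoderm cells and 5 of 618 erythroid cells. Tbx3 was found in 316 of 512 endoderm cells and 13 of 118 mesoderm cells against 11 of 618 erythroid cells. Twist1 was found in 48 of 82 endothelial cells, 157 of 512 endoderm cells and 24 of 118 mesoderm cells against 10 of 618 erythroid cells. For Foxf1 the endothelial share was 40.2% against 1.62% in erythroid cells, and 45.9% against 3.33% unthinned. Tbx3 in endoderm rose to 83.2% and Twist1 in endothelium to 68.5% without thinning, against 4.75% and 4.28% in erythroid cells. A share of cells with a UMI depends on depth and does not count the cells that use a gene.

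**Figure D4:**
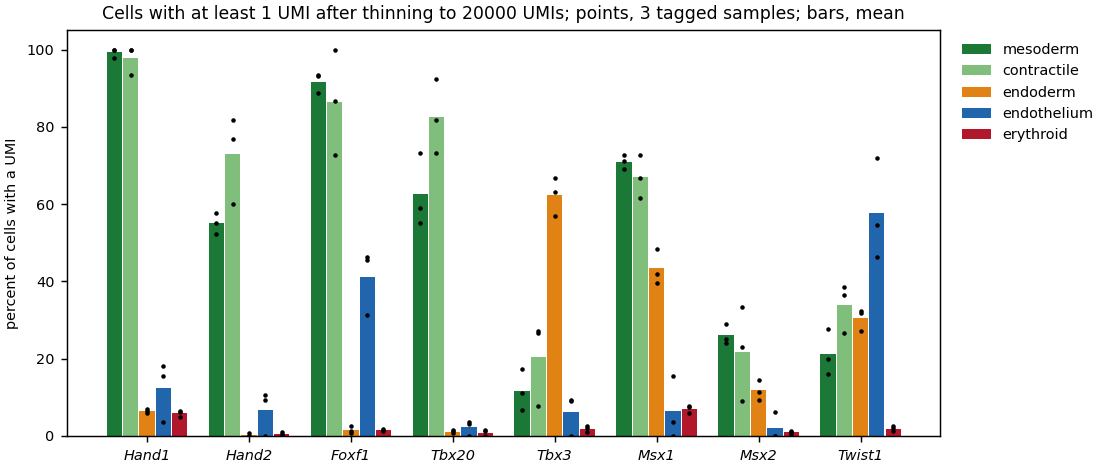
Percent of cells with at least 1 UMI of each gene after thinning to 20000 UMIs per cell (vertical axis) in 5 classes; points are 3 tagged samples and bars their mean. Hand1 and Foxf1 are found in nearly every mesoderm cell, Tbx3 mainly in endoderm cells and Twist1 most often in endothelial cells, and the erythroid bars give the background.

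The genes were found together in single mesoderm cells. At equal depth a mesoderm cell held a median of 4 of the 8 genes, from 2 to 8, and a contractile cell a median of 5, from 2 to 7. The medians were 2 in endoderm, 1 in endothelium and 0 in erythroid cells. Hand1, Hand2, Foxf1 and Tbx20 were all found in 41 of 118 mesoderm cells and in 21 of 39 contractile cells. Such joint counts depend on the share of cells with each gene, and any excess over those shares was not tested. In endoderm, 470 of 512 cells had a UMI of none of those 4 genes, as did 566 of 618 erythroid cells and 39 of 82 endothelial cells.

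**Figure D5:**
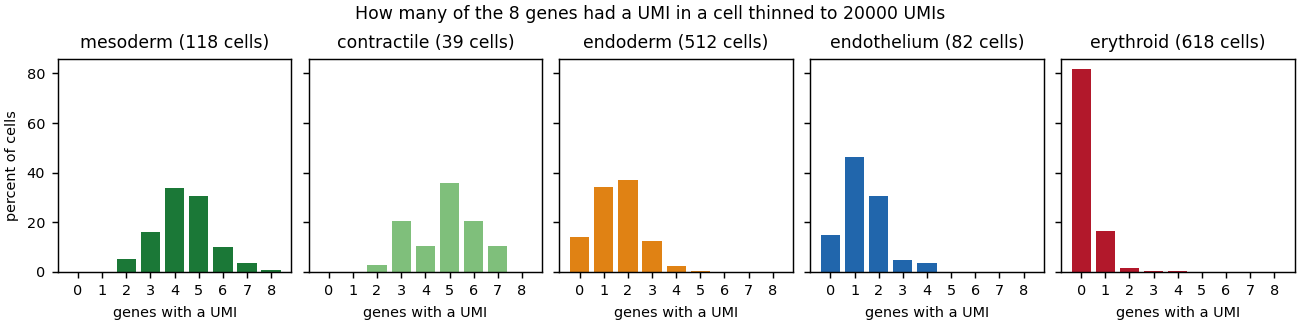
Percent of cells (vertical axis) by the number of the 8 genes with a UMI (horizontal axis) after thinning to 20000 UMIs per cell, in 5 classes pooled over 3 tagged samples. Mesoderm and contractile cells centre on 4 and 5 genes, endoderm cells on 2 and endothelial cells on 1, and most erythroid cells hold none.

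Within mesoderm, the level of each gene was compared between cells with and without a UMI of each other gene. Of 56 ordered pairs, 35 had at least 20 cells on each side, and 11 of these (31.4%) had the same direction in all 3 tagged samples, 6 higher and 5 lower. Signs that fall either way at equal odds would do so in 25% of pairs. Of the 10 pairs with enough cells on each side both ways round, 0 had the same direction in all samples both ways, so the values that follow show no firm pairing. No test was made, since the cells of a sample are not replicates. Foxf1 was at 147, 163 and 183 CPM in cells with Tbx20 and at 123, 106 and 121 in cells without it. Msx2 was at 25, 25 and 32.8 in cells with Msx1 and at 0, 12.5 and 3.85 in cells without it. The other way round the samples differed: Msx1 was at 114, 81.8 and 96.2 in cells with Msx2 and at 52.3, 83.3 and 51.6 in cells without. Foxf1 went the other way with Msx2, at 64.3, 114 and 162 in cells with Msx2 and 159, 148 and 169 in cells without. Msx1 and Msx2 were each lower in cells with Tbx20 than without, with means of 63.3 against 85.8 and 15.8 against 28.9. Split the other way, Tbx20 was higher in cells with Msx2 (57.1, 54.5 and 76.9) than without (52.3, 48.5 and 70.3), and its direction with Msx1 was mixed. Hand2 in cells with Msx2, Tbx3 in cells with Twist1 and Twist1 in cells with Hand2 were also higher in all samples. Tbx3 was lower in cells with Hand2 and in cells with Tbx20. In all, 24 pairs with enough cells had mixed directions, those called mixed above included. In endoderm, 2 of 12 ordered pairs among Tbx3, Msx1, Msx2 and Twist1 had the same direction in all 3 samples (16.7%). Msx1 averaged 44.9 in cells with Tbx3 and 31.6 in cells without, while the direction of Tbx3 with Msx1 was mixed.

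The contractile cells were then set against the other mesoderm cells, since several of these factors also act in the heart. Hand1 was at 485, 453 and 540 CPM in contractile cells, Hand2 at 77.6, 76.5 and 75.9, Foxf1 at 182, 107 and 222, and Tbx20 at 81.5, 57.4 and 88.8. Msx1 was at 107, 91.8 and 85.1. Hand1, Foxf1 and Tbx20 overlapped their mesoderm values, and Hand2 and Msx1 lay above theirs in every sample. In edgeR, 0 of the 8 genes were called, where 0.238% of 7149 genes were called (17 genes, of which 13 or 0.182% were higher and 4 or 0.056% lower), and DESeq2 called 0 of the 8 as well. At an unadjusted p under 0.05 there were 4 of the 8, where 582 of all 7149 genes (8.14%) were: Hand2 (0.44, 95% interval 0.08 to 0.79), Msx1 (0.44, 0.05 to 0.84) and Twist1 (0.77, 0.08 to 1.46) were above 0 and Msx2 (-0.89, -1.59 to -0.18) was below it. The interval for Hand1 was -0.11 to 0.31 and for Tbx3 -0.67 to 1.23, and without tagged sample 2 the Tbx3 value turned to -0.15. Among the 17 called genes were Tnnt2, a gate gene, the troponin genes Tnni1 and Tnnc1, and the heart factor Gata5 (higher), and the cyclin gene Ccnd1 and the keratin gene Krt19 (lower). Of 12 alternatives, Tnnt2 was called in 12, Tnnc1 in 11, Tnni1 and Ccnd1 in 10, Krt19 in 7 and Gata5 in 5, and without tagged sample 3 only Tnnt2 of these 6 was called. The class holds 40 cells, and its contractile marker list was highest in tagged sample 1.

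Partners of the helix-loop-helix factors were split between the layers. Of the 7 listed genes, 6 were tested against endoderm: the E protein genes Tcf3, Tcf4 and Tcf12 were higher in mesoderm, and the inhibitor genes Id1, Id2 and Id3 were lower. Their median log2 difference was -0.42, and that of all genes tested was -0.03. Tcf4 averaged 119 ± 16.6 CPM in mesoderm and 9.38 ± 1.60 in endoderm (SD, n = 3). Id2 averaged 44.5 ± 14.1 in mesoderm and 475 ± 59.1 in endoderm, and Id3 averaged 79.8 ± 15.2 and 324 ± 5.23. Tcf4 in endothelium (112 ± 6.40) was close to mesoderm, with a log2 difference of -0.01 (SE 0.13), and Id3 was higher in endothelium (288 ± 35.1). Against endothelium 2 of 6 were lower (Id1 and Id3) and the other 4 were not called in edgeR or DESeq2 or at an unadjusted p under 0.05, against erythroid cells 6 of 6 were higher (3 of 6 in thinned sums, without Id1, Tcf12 and Tcf3), and between contractile and mesoderm cells 0 of 6 were called in edgeR or DESeq2, with 1 at an unadjusted p under 0.05. None of the called genes changed sign with library size scaling or DESeq2.

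Related factors of the same families were fewer. Of 21 listed helix-loop-helix, forkhead, T-box and Msx-related genes, 6 passed the filter against endoderm, and Foxf2, Foxp1, Tcf21 and Twist2 were higher in mesoderm while Eomes and Tbx2 were lower (median log2 difference 4.04, all genes -0.03). Against endothelium 3 of 3 tested were higher (16.9% of all genes tested were), and against erythroid cells 4 of 4 (36.3% of all genes). Twist2 and Foxf2, with at most 8 UMIs in either class, passed the filter through mesoderm alone, as they did against endoderm. Their direction was thus fixed in advance. Between contractile and mesoderm cells 0 of 2 were called in edgeR or DESeq2, with 0 at an unadjusted p under 0.05. Twist2, the closest relative of Twist1, was found in mesoderm at 14.9, 24.6 and 20.6 CPM and in contractile cells at 21.3, 9.56 and 29.6. It had 0 UMIs in endothelium, where 3 counts would be 0.720 CPM, and 4 UMIs in endoderm. Twist2 and Twist1 were thus highest in different classes. Foxf2 was at 10.7, 9.83 and 11.8 in mesoderm, with 6 UMIs in endoderm and 1 in endothelium. Foxp1, a forkhead gene of wide expression, averaged 80.6 ± 10.5 in mesoderm, 11.8 ± 1.34 in endoderm and 21.9 ± 7.77 in endothelium (SD, n = 3).

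Other transcription factors of mesoderm were mostly on the same side. Of 24 listed genes 19 were tested against endoderm, of which 17 were higher in mesoderm, Gata4 was lower and Ets2 was not called (median log2 difference 2.03, all genes -0.03). DESeq2 called 15 of them higher, without Snai1 and Srf, and leaving out tagged sample 2 left 13. The zinc finger gene Snai2 was at 129, 144 and 106 CPM in mesoderm against a highest value of 2.68 in endoderm and 2.24 in endothelium. Ets1 averaged 45.4 ± 6.89 in mesoderm, 2.43 ± 0.370 in endoderm and 114 ± 22.8 in endothelium (SD, n = 3). Against endothelium the list was divided, with 6 of 15 higher and 7 lower (median -0.37, all genes 0.01), and Ets1 was among the lower. Against erythroid cells 15 of 17 were higher, and 8 of 12 in thinned sums. Between contractile and mesoderm cells Gata5 alone of 14 was called. DESeq2 did not call Gata5, nor did edgeR with any 1 tagged sample left out, while DESeq2 and the replicate block each called Pitx1 lower.

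Genes of the BMP pathway, which can act upstream of Msx and Id genes, were also counted. Against endoderm 11 of 16 tested were higher in mesoderm, among them Bmp2, Bmp4 and Bmp5, 3 were lower (Bmp7, Smad1 and Smad9) and 2 were not called (median log2 difference 0.74, all genes -0.03). In sums thinned to equal depth 4 of 12 were called higher and 0 lower. The ligand gene Bmp4 was at 174, 124 and 124 CPM in mesoderm and averaged 2.19 ± 0.179 in endoderm and 36.2 ± 7.33 in endothelium (SD, n = 3). Bmp5 averaged 39.7 ± 4.33 in mesoderm and 0.368 ± 0.231 in endoderm. The receptor gene Acvr2b averaged 43.8 ± 4.47 in mesoderm, against 9.05, 8.04 and 9.15 in the endoderm sums. The counts were 7 of 14 higher and 2 lower against endothelium, 14 of 15 higher against erythroid cells (8 of 12 in thinned sums), and 0 of 13 between contractile and mesoderm cells in edgeR or DESeq2, with 2 at an unadjusted p under 0.05. Genes of stroma, smooth muscle and mesothelium were higher in 16 of 17 tested against endoderm and in 13 of 14 against endothelium (medians 5.62 and 5.64). Cdh11 averaged 114 ± 15.2 in mesoderm and 1.10 ± 0.487 in endoderm, and Col1a1 averaged 192 ± 26.9 and 2.12 ± 1.31. Vim, at 843 ± 5.60 in mesoderm, was lower than in endothelium (1860 ± 74.1). Against erythroid cells 14 of 14 were higher. Between contractile and mesoderm cells Vcam1 alone of 15 was called (higher). With the tagged sample as a replicate block Vcam1 was not called and the collagen genes Col1a1, Col1a2 and Col3a1 were called lower. DESeq2 called Col1a1 lower and not Vcam1, and Vcam1 was not called without tagged sample 1 or 2. The genes of stroma, smooth muscle and mesothelium include Pdgfra, Pdgfrb, Col1a1, Col1a2, Col3a1, Postn, Cdh11 and Vim. With Bmp4, a BMP pathway gene, these are all of the mesoderm markers above. Counts for the stroma, smooth muscle and mesothelium genes are thus not independent of that marker check.

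The genes with the most similar pattern were found by Pearson correlation of log2(CPM + 1) over 15 sums, which are 5 classes in 3 tagged samples and so share libraries. The search covered 6980 genes that averaged at least 20 CPM in a class, and the correlations are descriptions. A class pattern shared by a gene and its neighbours below follows from this choice. For Hand1 these were Tenm3, Fxyd6 and Crb2 (0.990, 0.989 and 0.987), and for Tbx20 they were Gucy1b1, Fxyd6 and Tenm3 (0.993, 0.992 and 0.992). Fxyd6 averaged 141 CPM in mesoderm and 1.58 in endoderm. The genes near Hand2 included Asxl3 and Igfbp2 (0.994 and 0.987), and Foxf1 was followed by Ptprd, Gulp1 and Gjc1 (0.994, 0.992 and 0.992). The neighbours of Foxf1 shared its intermediate level in endothelium, where Gjc1 averaged 17.3 against 71.7 in mesoderm and 1.35 in endoderm. Tbx3 was followed by Lpar1, Cmtm4 and Mogat2 (0.973, 0.971 and 0.971), all highest in endoderm. Msx1 was followed by Pard6b, Efnb1 and the epithelial keratin gene Krt8 (0.986, 0.985 and 0.980), and Krt8 averaged 1193 in mesoderm, 479 in endoderm and 30.8 in endothelium. Msx2 was followed by Krt19, Sulf1 and P4ha2 (0.971, 0.967 and 0.962). Twist1 was followed by Rac1, Coro1c and Sptbn1 (0.984, 0.971 and 0.970), which were present in all classes and highest in endothelium.

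Noncoding genes beside the 8 were few in the matrices, with 2 of 7 listed, Tbx3os1 and Tbx3os2, and neither passed the filter in any comparison. Tbx3os1 (chr5:119570130-119671365, minus strand) overlaps the start of Tbx3 on the other strand. It had 7, 21 and 13 UMIs in the endoderm sums, where Tbx3 was highest, and 3 UMIs in mesoderm in all. Tbx3os2 (chr5:119685095-119691218, minus strand) had 10, 7 and 3 UMIs in endoderm and 0 in mesoderm, contractile, endothelial and erythroid cells (in mesoderm, 3 counts would be 0.633 CPM). No source used here says whether the counting kept the strands apart, so reads of Tbx3 and Tbx3os1 may not be separable where they overlap. The other 5 neighbours were not analysed here.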

How the data were processed

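Single-cell RNA counts of 3 tagged yolk sac samples were used; the tag library was not used, and 0 columns belonged to no sample. The values are raw UMI counts per gene and cell, not normalized, as the authors deposited them. The file headers name Cell Ranger 6.1.2 as the software. GRCm38 and mm10 are named in the submitters' processing notes. Of the gene identifiers, 30900 of 30970 matched GENCODE M21. The 8 genes, the gates, the lists and the tests were chosen with earlier results of these data known.

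A minimum of 500 genes and a maximum of 10% mitochondrial UMIs per cell left 443, 614 and 683 cells. Gates were 0.3% for endoderm, 3% for erythroid cells, 0.04% for endothelium and 0.05% for mesoderm, and 50 cells in 2 gates were dropped. No doublet caller was applied in the main analysis; Scrublet called 21, 30 and 38 cells, which an alternative removed. For each class, counts were added up within each tagged sample. Levels are CPM (counts per 1000000 summed gene UMIs) with their SD over 3 sums. Each comparison was a fit of its 2 classes in edgeR 4.0.16 on R 4.3.3, using its quasi-likelihood test (glmQLFit, glmQLFTest, two-sided) after filterByExpr and TMM scaling, with p-values adjusted by Benjamini-Hochberg over all genes tested. Intervals on pooled counts are exact and cover counting error only. The test was tested on simulated counts with genes changed by known amounts: against endoderm (10424 genes run, 200 changed), 95.1% of genes changed by a log2 of 2 were recovered and 42.9% of those changed by a log2 of 1, and 11 unchanged genes were called. For contractile against mesoderm (7064 genes run, 199 changed) these were 96.0%, 40.0% and 9. Only genes above a set mean count were changed, and all genes had the same simulated spread, which was not taken from these data. The rates need not hold for genes of low counts, such as Tbx3 between contractile and mesoderm cells.

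The 2 class sums with the same number come from the same tagged sample, so the numbers pair them. For mesoderm and endoderm, the correlation across genes of same-numbered deviations was 0.0986, 0.0862 and 0.0124 (genes are not independent replicates). Alternatives were a replicate block, DESeq2 1.42.0, library size scaling, no low-count filter, all 5 classes in 1 fit, stricter cell filters (1000 genes and 5%), gates raised by a factor of 2, Scrublet calls removed, sums thinned to equal depth, and each tagged sample left out. Named genes were the 8, the 3 genes of each list with the smallest p against endoderm, noncoding neighbours, and the 3 genes of most similar pattern. Some genes that this rule names are not reported here. Called contractile genes, and list genes named beside a count, were chosen after their values were seen.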

Additional observations from a re-analysis of the deposited data

Results flagged for a closer look

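Cells that met no gate, 208 in all, entered no comparison, and for 6 of the 8 genes every value there was above every erythroid value. Hand2, at 0.943, 5.74 and 0.850 CPM, was above the erythroid value of the same tagged sample but overlapped the erythroid range, as Msx1 did. Hand1 averaged 68.3 CPM (107, 56.6 and 41.2), Tbx3 9.43 (19.3, 3.44 and 5.52), Twist1 5.39 (4.48, 5.74 and 5.95), Msx2 4.67 (7.31, 4.59 and 2.12), Tbx20 3.87 (1.89, 8.03 and 1.70) and Foxf1 3.08 (2.83, 3.44 and 2.97). In tagged sample 2, 18 of the 21 Tbx20 UMIs came from 2 cells. There the contractile marker list summed to 637 CPM in these cells (42.2 and 56.9 in the other samples) and a list of parietal endoderm markers to 5045 (lowest of the others 221). A list of 10 trophoblast genes summed to between 141 and 372 CPM in these cells, against 6.25 to 9.50 in erythroid cells, with Prl3d1, Prl2c2 and Tpbpa at 0. In the cells with at least 5 UMIs of that list, a limit set after the values were seen (38, 19 and 9 cells), Hand1 was at 206, 148 and 208 CPM, and in the other cells it was at 4.33, 3.03 and 7.16. Tbx3 was at 35.6, 2.07 and 22.5 in the first and at 2.40, 4.25 and 2.05 in the others. Hand2 had 0 UMIs in the first, and Foxf1 had 1 UMI. The part of other cell types in these values was not tested.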

How the results depend on the processing

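The precision is limited by 3 tagged samples and by 139 mesoderm and 40 contractile cells. Of the differences of the 8 genes under the alternatives, 360 kept their direction and side of the threshold, 9 lost a call, 5 gained one and 2 turned sign. Those 2 were Twist1 against endoderm in thinned sums (0.56) and Tbx3 between contractile and mesoderm cells, which ran from -0.15 without replicate 2 to 0.49 as the extremes. The number of genes called against endoderm was 6714, and 2411 in thinned sums. Against erythroid cells it was 6694, and 2523 in thinned sums. Against endothelium it was 3081, and from 2051 to 3033 with a tagged sample left out, the lowest without tagged sample 3. For contractile against mesoderm it was 17, and 34 with the replicate block, 26 with DESeq2, 165 with no low-count filter, 26 with raised gates, 4 in thinned sums, and from 4 to 15 with a tagged sample left out (8 without tagged sample 1, 4 without tagged sample 3). In thinned sums, 2640 genes were called against endothelium. Thinning leaves fewer counts per gene and was a single random draw. It also moved log2 differences, as for Twist1 (0.56) and Foxf1 (5.25) against endoderm. Why calls and differences moved was not tested. The replicate block changed no other call of the 8 genes than Tbx3 against endothelium. Of levels by class, 272 moved by less than 1 SD and 16 by more, and of shares of cells, which move with depth, 35 and 61. Tbx3 did not pass the low-count filter against endothelium or erythroid cells in thinned sums or with raised gates, nor between contractile and mesoderm cells in those settings, with Scrublet calls removed or without tagged sample 1, so no value was had there.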
